A study of Canis lupus familiaris with 6 samples.

Results

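Oxidative phosphorylation is described here through 72 of the 30951 genes listed. Most of the 72 encode its subunits, and each was assigned to a complex by its symbol. ATP5IF1, an inhibitor of complex V, was counted there too. Members were chosen by symbol alone: NDUFA, NDUFB, NDUFC, NDUFS and NDUFV subunits, SDHA to SDHD, the UQCR genes and CYC1, COX4 to COX8, the ATP5 genes, and the protein-coding genes of the mitochondrial DNA, without assembly factors. No listed symbol matched NDUFC or SDHD. Among the COX genes, COX6A1, COX6B1, COX6C, COX7A2, COX7B and COX7C were not found by symbol either. The same holds for NDUFA1, NDUFA3, NDUFA4, NDUFA5, NDUFA7, NDUFA11, NDUFB1, UQCRH, UQCR11, ATP5PO, ATP5PD, ATP5MC2, ATP5MC3, ATP5ME, ATP5MF and ATP5MG. These subunits are therefore not covered, and the counts per complex below leave them out. Of the 72 members, 59 are nuclear genes, with 29 in complex I, 3 in complex II, 7 in complex III, 9 in complex IV and 11 in complex V. The other 13 are mitochondrial genes, of which 10 carry the MT prefix and 3 are listed as COX3, ND4L and ND5.

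RNA was sequenced from CMM2 and CMM12, which are canine melanoma cell lines. Each line gave 1 control library and 2 libraries with a podoplanin KO genotype, numbered KO 1 and KO 2, so that 6 libraries were compared. Podoplanin is a mucin-like membrane glycoprotein, and KO means that its gene was targeted for knockout. The labels do not say how the KO lines were made, what the controls carried, or whether a KO line is 1 clone. They do not say that libraries came from separate cultures either, and the p-values therefore reflect the spread among libraries, which may be technical.

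Complex I passes electrons from NADH, and complex II from succinate, to ubiquinone. Complex III hands them on to cytochrome c, and complex IV to oxygen. Complexes I, III and IV pump protons, and complex V, the ATP synthase, uses the gradient to make ATP. All complexes but complex II combine nuclear subunits with subunits encoded by the mitochondrial DNA, which is transcribed as long precursors that are then processed to single transcripts.

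The libraries held 9732927 to 11807835 estimated counts, and 12270 genes had enough counts to be tested. PDPN, the targeted gene, had 212 counts in the CMM2 control and 64 and 59 in its KO libraries, against 1017 in the CMM12 control and 167 and 102 in its KO libraries. Within a line, any 2 libraries differed by more than counting noise. CMM2 KO 2 differed from the CMM2 control and from KO 1 by a chi-square per degree of freedom of 59.3 and 49.7. The CMM2 control and KO 1 differed from each other by 14.5, and pairs of CMM12 libraries by 33.5 to 47.8. Of 10 melanocyte markers, MITF was found at 15.4 to 28.4 CPM (counts scaled to library size), and TYRP1 at 3.71 to 6.07 CPM in CMM12 alone. DCT was at 0, and SOX10, TYR, MLANA and S100B at or near 0, in these libraries. The markers summed to 22.0 to 28.9 CPM in CMM2 and 21.0 to 34.0 CPM in CMM12. Markers of other cells summed to 79.9 to 135.3 CPM in CMM2 and 66.1 to 90.4 CPM in CMM12. The fibroblast marker PDGFRA made up most of this in CMM2, at 64.2 to 118.9 CPM. In CMM12 it was at 29.9 CPM in the control and 36.5 and 60.9 CPM in the KO libraries. The fibroblast markers LUM and DCN were at no more than 1.04 and 0.189 CPM in CMM2. DCN was at 3.88, 8.94 and 0 CPM in the CMM12 control, KO 1 and KO 2. PDGFRB, another fibroblast marker, was at 2.005 to 4.92 CPM in CMM2. It was at 3.11 CPM in the CMM12 control and 5.93 and 10.5 CPM in its KO libraries. The endothelial marker VWF was at 8.33 to 15.4 CPM in CMM2. In CMM12, VWF was at 1.90 CPM in the control and 4.93 and 7.14 CPM in the KO libraries. Of the other endothelial markers, CDH5 was at 0 in CMM2 and at no more than 0.274 CPM in CMM12. PECAM1 was at no more than 0.284 CPM in CMM2, and at 0.0863, 0.0912 and 1.66 CPM in the CMM12 control, KO 1 and KO 2. The blood cell markers PTPRC and CD3E were at 0, which allows up to 0.308 CPM (3 counts) in a library. The myeloid markers CD68 and CSF1R were detected. CD68 was at 0.852 to 2.77 CPM over the 6 libraries. CSF1R was at 0.0955 to 0.757 CPM in CMM2, and at 0.777 CPM in the CMM12 control and 3.38 and 4.89 CPM in its KO libraries. KRT14 and LUM stood at 17.7 and 16.9 CPM in the CMM12 control and at no more than 0.979 and 0.456 CPM in its KO libraries. CDH1 was at 3.33 to 6.30 CPM in CMM12 and at 0 in CMM2, and EPCAM at no more than 0.173 CPM in CMM12 and at 0 in CMM2. The part of these differences in the results below was not tested.

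Of the 72 members, 65 were tested, 52 nuclear and 13 mitochondrial. ATP5F1E, ATP5MD, ATP5MPL, COX6A2 and COX7B2 had no counts in any library. Gene models shorter than 250 bases had counts in 48 of 3600 cases (1.33%), so a 0 at a short model says little about the gene. COX6A2, at 552 bases, is longer, and 63.9% of models of at least 500 bases had counts. COX4I2 and NDUFA4L2, paralogs of COX4I1 and NDUFA4 known for their response to low oxygen, had at most 0.547 and 0.0874 CPM and were not tested. In TPM, a unit of expression scaled for transcript length within a library, the mean levels of the tested nuclear members ran from 31.2 to 526 in complex I, 183 to 208 in complex II, 188 to 1551 in complex III, 37.7 to 921 in complex IV and 238 to 1547 in complex V. In bulk RNA, fewer cells with a transcript and less transcript per cell cannot be told apart.

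The first comparison was of CMM12 with CMM2, over 3 libraries each. Called nuclear subunits lay in both directions in complexes I and III, and only lower in complexes IV and V. In complex II, SDHA, its flavoprotein, and SDHC, a membrane anchor, were higher in CMM12, and SDHB, its iron-sulfur subunit, was not. Of the 52 nuclear members 26 (50%) passed an adjusted p of 0.05 in edgeR's quasi-likelihood test, 8 higher and 18 lower in CMM12. Over all 12270 genes tested 25.8% passed, 14.6% higher and 11.2% lower. The median log2 fold change was −0.28 over the nuclear members and 0.04 over all genes. Leaving out 1 library at a time gave 12 to 24 nuclear calls, with 14 without the CMM2 control, 12 without CMM2 KO 1, 14 without the CMM12 control and 14 without CMM12 KO 2. Without CMM2 KO 2 there were 24.

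**Figure D1:**
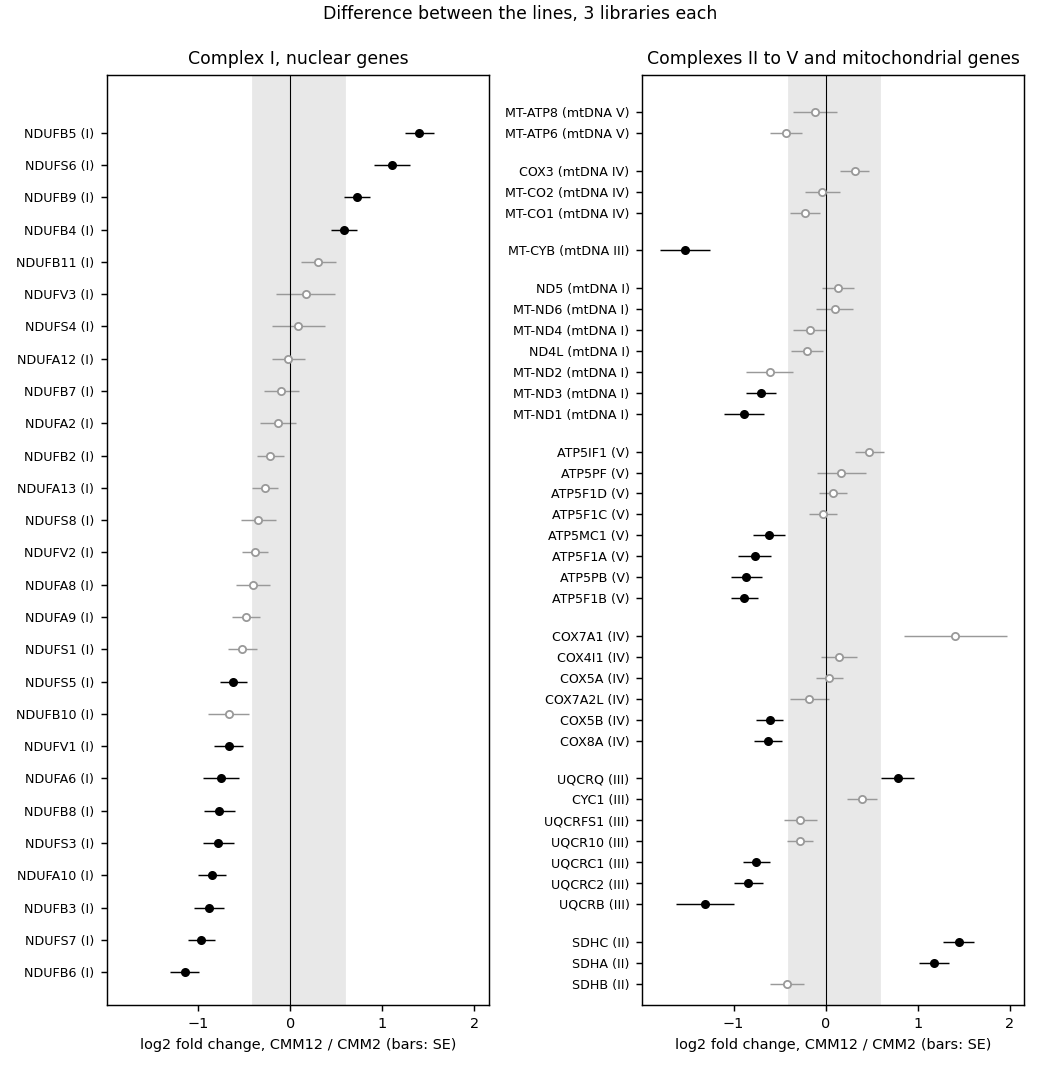
Log2 fold change of tested members, CMM12 over CMM2 (points, with standard errors as bars), by complex, with mitochondrial genes marked mtDNA. Filled points have an adjusted p under 0.05 and the grey band spans the middle 50% of all genes tested. Members of 1 complex lie on both sides of 0, and SDHA and SDHC lie to the right of SDHB.

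SDHA was at 217, 194 and 225 CPM in the CMM2 control, KO 1 and KO 2, and at 505, 518 and 416 CPM in the same libraries of CMM12. All CMM12 libraries lay above all CMM2 libraries, and the log2 fold change was 1.18 (SE 0.163, edgeR adjusted p = 0.00342). SDHC was at 77.3, 75.7 and 76.3 CPM in CMM2 and at 214, 237 and 174 CPM in CMM12. Its 3 CMM2 libraries were within 2 CPM of each other, and the log2 fold change was 1.45 (SE 0.170, edgeR adjusted p = 0.00204). SDHB was at 159, 130 and 135 CPM in CMM2 and at 106, 125 and 84.3 CPM in CMM12. Here every CMM12 library lay below every CMM2 library, but the log2 fold change of −0.42 (SE 0.187) did not pass (edgeR adjusted p = 0.137). The ratio of SDHA to SDHB in TPM was 0.526, 0.579 and 0.644 in CMM2 and 1.87, 1.61 and 1.94 in CMM12. The ratio of SDHC to SDHB was 0.453 to 0.575 in CMM2 and 1.76 to 1.99 in CMM12, so neither ratio overlapped between the lines.

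**Figure D2:**
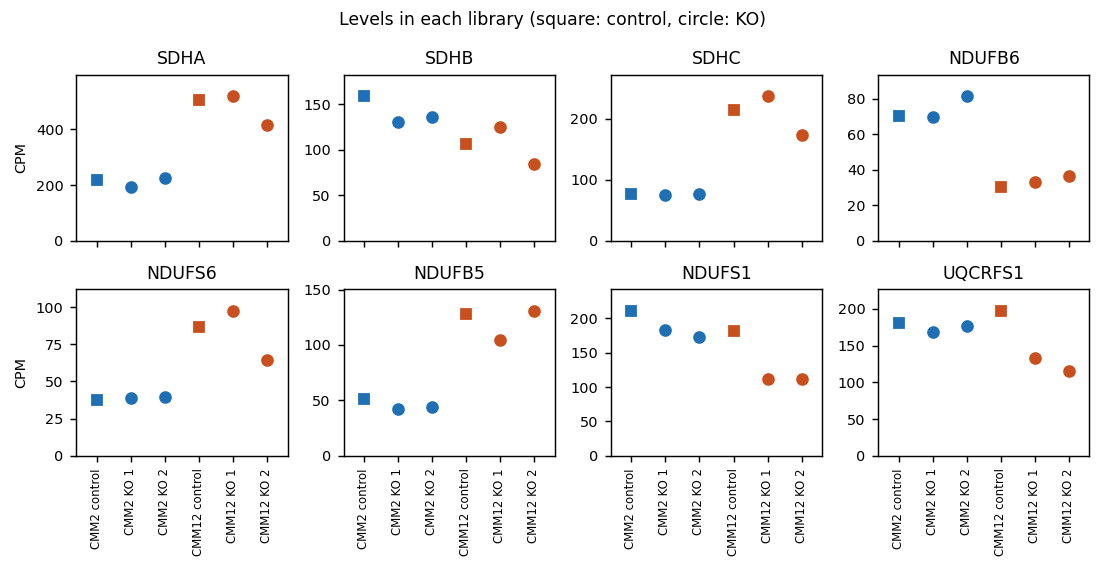
CPM in each of the 6 libraries for 8 members, each on an axis from 0 (blue CMM2, orange CMM12, squares controls, circles KO). SDHA, SDHC, NDUFS6 and NDUFB5 are higher and NDUFB6 is lower in every CMM12 library, while the KO libraries of NDUFS1 and UQCRFS1 all lie below the matching control.

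In complex I, 14 of 28 nuclear members were called, 5 higher and 9 lower in CMM12. NDUFB5, an accessory subunit of the membrane arm, was at 51.2, 42.1 and 44.3 CPM in CMM2 and 128, 105 and 131 CPM in CMM12 (log2 fold change 1.40, SE 0.158, edgeR adjusted p = 0.00187). NDUFS6, an accessory subunit of the peripheral arm, was at 37.2, 38.6 and 39.4 CPM in CMM2 and 86.3, 97.2 and 64.6 CPM in CMM12 (log2 fold change 1.11, SE 0.195, edgeR adjusted p = 0.00769). No library of one line reached the other for NDUFB5 or NDUFS6. The accessory subunits NDUFB9 and NDUFB4 were higher by log2 fold changes of 0.73 and 0.58.

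The called members that were lower in CMM12 included core subunits as well. NDUFB6, an accessory subunit of the membrane arm, was at 70.6, 69.7 and 81.5 CPM in CMM2 and 30.5, 33.4 and 36.4 CPM in CMM12 (log2 fold change −1.15, SE 0.161, edgeR adjusted p = 0.00361). NDUFS7, a core iron-sulfur subunit, was at 111, 112 and 132 CPM in CMM2 and 59.0, 60.1 and 62.1 CPM in CMM12 (log2 fold change −0.97, SE 0.148, edgeR adjusted p = 0.00484). The groups did not overlap for either gene. NDUFB3, NDUFA10, NDUFS3, NDUFB8, NDUFA6, NDUFV1 and NDUFS5 were called at log2 fold changes from −0.88 to −0.62. NDUFS1, the largest core subunit, had −0.52 and did not pass (edgeR adjusted p = 0.0508).

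In complex III, 4 of 7 nuclear members were called, 1 higher and 3 lower in CMM12. UQCRQ, a small subunit, was at 135, 119 and 133 CPM in CMM2 and 181, 263 and 229 CPM in CMM12 (log2 fold change 0.78, SE 0.177, edgeR adjusted p = 0.0179). UQCRB, a ubiquinone-binding subunit, was at 174, 132 and 145 CPM in CMM2 and 62.7, 84.3 and 33.6 CPM in CMM12 (log2 fold change −1.31, SE 0.314, edgeR adjusted p = 0.0219). The CMM12 libraries of UQCRB spread over more than 2-fold, yet none reached CMM2. The core proteins UQCRC1 and UQCRC2 were lower by −0.75 and −0.84, while CYC1, the cytochrome c1 subunit, had 0.39 and did not pass (edgeR adjusted p = 0.121).

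In complex IV, COX5B and COX8A were called of 6 tested nuclear members, lower in CMM12 by −0.61 and −0.63. COX4I1, the regulatory subunit, had 0.14 (edgeR adjusted p = 0.622) and −0.02 without CMM2 KO 2. COX7A1, the heart and muscle isoform, was at 1.53, 1.66 and 0.757 CPM in CMM2 and 1.90, 5.11 and 4.21 CPM in CMM12, on 8 to 56 counts, and its log2 fold change of 1.41 (SE 0.562) did not pass (edgeR adjusted p = 0.105).

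In complex V, 4 of 8 nuclear members were called, all lower in CMM12. ATP5F1B, the catalytic beta subunit, was at 2340, 2032 and 2151 CPM in CMM2 and 1160, 1237 and 1130 CPM in CMM12 (log2 fold change −0.89, SE 0.146, edgeR adjusted p = 0.00626). The lines did not overlap for this gene. ATP5F1A, the alpha subunit, ATP5PB, of the peripheral stalk, and ATP5MC1, of the membrane ring, were lower by −0.77, −0.86 and −0.61. ATP5F1C and ATP5F1D, the gamma and delta subunits, had −0.03 and 0.08, and neither sign held in every alternative. ATP5IF1, the inhibitor of the synthase, had 0.47 and did not pass (edgeR adjusted p = 0.0627).

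By library values alone, 11 of 52 nuclear members lay higher in every CMM12 library than in any CMM2 library (24.6% of all genes did) and 23 lay lower (21.5% of all genes). SDHA, SDHC, NDUFB5, NDUFS6, NDUFB6, NDUFS7, NDUFA10 and ATP5F1B were called in each of the 18 alternative fits, those without 1 library included. The 17 nuclear calls that were lost in at least 1 were made in 8 to 17 of them, UQCRQ in 15, UQCRB in 13, ATP5F1A in 12 and ATP5MC1 in 8.

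Where the members lie was also described, with neighbours taken from the order of genes in the RefSeq table of another dog assembly. This was looked at after the values were seen, and carries no test. The median log2 fold change of the 10 nearest tested non-member genes on each side was set beside that of the member, for the 50 nuclear members that could be placed. Across them Pearson's r was 0.844 and Spearman's rho 0.796, and nearby members share neighbours. The same measure gave 0.225 and 0.450 over all 10479 placed genes. Over the 7818 placed genes with a mean of at least 10 CPM, a subset added after those values were seen, it gave 0.396 and 0.580. Subtracting the neighbours' median took the SD of the members' log2 fold changes from 0.704 to 0.378. It took the SD from 1.915 to 1.866 over all placed genes, and from 1.093 to 1.004 over those with at least 10 CPM. For the members, r was 0.801 and 0.839 with 5 or 25 genes on each side, and 0.779 with the whole chromosome.

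All 8 members called higher had a neighbour median above 0 (0.57 to 1.53). Of 16 placed members called lower, 14 had one below 0, the exceptions being NDUFB6 (0.09) and NDUFS5 (0.24). Over all 50 placed members, called or not, 40 had the sign of their neighbour median. The share among all called genes was not computed, and members on the same chromosome are not separate cases. SDHA, NDUFS6 and NDUFB5 lie on 1 chromosome, with neighbour medians of 1.29, 1.35 and 1.34 and a median of 0.95 over its 113 other tested genes. SDHC lies on another, with a neighbour median of 1.53 and a median of 1.14 over its 87 other tested genes. SDHB lies elsewhere, with a neighbour median of 0.42 beside its own −0.42. UQCRQ and NDUFB6 share a chromosome whose other 286 tested genes had a median of 0.85, and they differed between the lines in opposite directions. DNA copy number was not measured here.

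**Figure D3:**
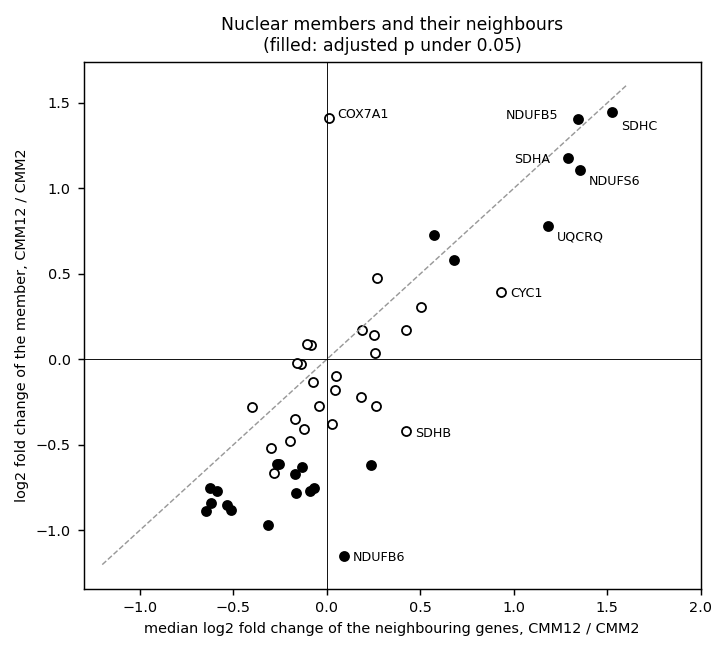
Log2 fold change of placed nuclear members, CMM12 over CMM2, against the median of the 10 nearest tested non-member genes on each side. The dashed line marks equal values and filled points have an adjusted p under 0.05. SDHA, SDHC, NDUFS6 and NDUFB5 lie at the upper right with their neighbours, and NDUFB6, SDHB and COX7A1 lie away from theirs.

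Of the mitochondrial transcripts, cytochrome b and 2 complex I subunits were lower in CMM12, while the summed share of all 13 overlapped between the lines. The 13 genes took 1.54%, 1.36% and 1.63% of the counts in the CMM2 control, KO 1 and KO 2, and 1.18%, 1.49% and 1.31% in CMM12. The exact 95% binomial interval, which covers counting error only, was 1.53% to 1.54% in the CMM2 control and as narrow in the others. The means were 1.51% ± 0.135 and 1.32% ± 0.159 (SD, n = 3), and the lines overlapped. Of the 13 genes 3 were called (23.1%, against 25.8% of all genes tested), all lower in CMM12, and only MT-CYB was called in every alternative.

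MT-CYB, the cytochrome b of complex III, was at 688, 766 and 904 CPM in CMM2 and at 186, 433 and 221 CPM in CMM12. Every CMM12 library lay below every CMM2 library, with CMM12 KO 1 nearest (log2 fold change −1.53, SE 0.275, edgeR adjusted p = 0.00831). The ratio of MT-CYB to ND5, a complex I gene, was 1.79, 2.21 and 2.08 in TPM in CMM2 and 0.494, 0.869 and 0.540 in CMM12. MT-ND1, a core subunit of complex I, was at 1425, 1391 and 1764 CPM in CMM2 and 748, 1070 and 654 CPM in CMM12 (log2 fold change −0.89, SE 0.218, edgeR adjusted p = 0.0236). MT-ND3, of the same complex, was at 885, 837 and 881 CPM in CMM2 and 542, 600 and 457 CPM in CMM12 (log2 fold change −0.70, SE 0.164, edgeR adjusted p = 0.0198). Those calls were lost in several alternatives: leaving out the CMM2 control, CMM2 KO 1, the CMM12 control or CMM12 KO 2 left 1 mitochondrial call each.

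MT-ND2 (−0.61) and MT-ATP6 (−0.43) also lay lower in every CMM12 library and did not pass (edgeR adjusted p = 0.118 and 0.110). COX3, of complex IV, was at 2021, 1751 and 2062 CPM in CMM2 and 2167, 2524 and 2599 CPM in CMM12, all above CMM2, with a log2 fold change of 0.32 that did not pass (edgeR adjusted p = 0.173). MT-CO1 and MT-CO2, the catalytic subunits of complex IV, had −0.23 and −0.04, the latter above 0 in several alternatives. MT-ND4, ND4L, ND5 and MT-ND6 of complex I lay between −0.20 and 0.13, and MT-ATP8 at −0.11. The signs of MT-ND6 and MT-ATP8 changed with 1 library left out. MT-ATP8 rests on 105 to 183 counts and overlaps MT-ATP6, and ND4L overlaps MT-ND4. Reads of MT-ND6, on the other strand than its neighbours, cannot be told apart from theirs if strand was not used.

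**Figure D4:**
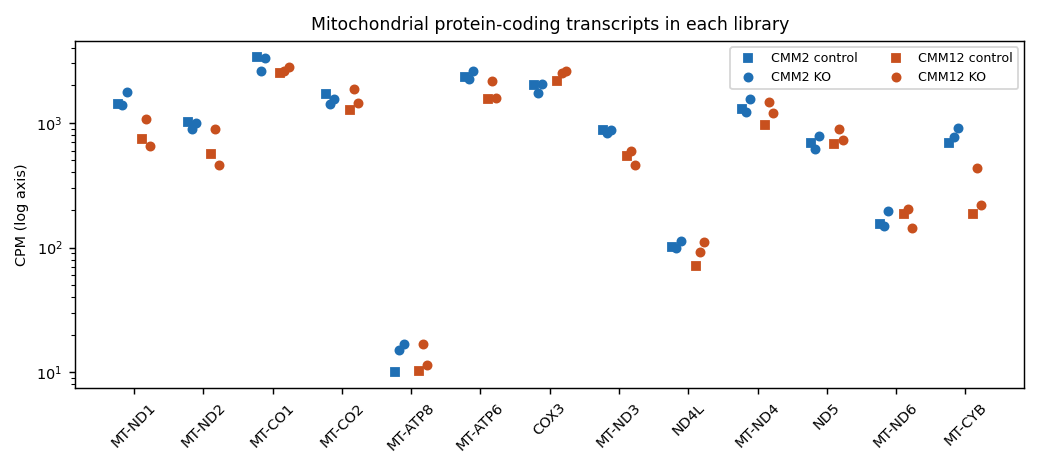
CPM of the 13 mitochondrial protein-coding transcripts in each library, on a log axis (blue CMM2, orange CMM12, squares controls, circles KO). MT-CYB, MT-ND1 and MT-ND3 are lower in all CMM12 libraries, and COX3 is higher in them.

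The second comparison was of the KO libraries with the control of their line. No nuclear or mitochondrial member passed the threshold across lines, in CMM2, in CMM12 or for the difference between them, by edgeR or by DESeq2. Over all genes edgeR called 0% across lines, 0% in CMM2, 0.00815% in CMM12 (1 gene) and 0% for the difference, where DESeq2 called 9, 6, 40 and 22 genes. At an unadjusted p of 0.05, edgeR passed 2 of 52 nuclear members across lines (4.03% of all genes), none in CMM2 (1.9%), 3 in CMM12 (5.99%) and none for the difference (3.84%). They were NDUFS1 and ATP5F1A across lines, and NDUFS1, UQCRFS1 and ATP5PB in CMM12. No mitochondrial member passed that either. Each line has 1 control, so a KO effect in a line rests on that library.

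Across lines the nuclear members had a median log2 fold change of −0.07 in KO, against 0.01 over all genes, and 35 of 52 (67.3%) were below 0, against 48.0% of all genes. The mitochondrial members had a median of 0.14, and 2 of 13 (15.4%) were below 0. None of these members passed the test. The libraries differed in this: the nuclear medians against the own control were −0.16 in CMM2 KO 1, −0.04 in CMM2 KO 2, 0.06 in CMM12 KO 1 and −0.17 in CMM12 KO 2. The mitochondrial medians were −0.08, 0.14, 0.48 and 0.14 in the same order. CMM12 KO 1 was the library where all 13 mitochondrial transcripts exceeded the control.

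**Figure D5:**
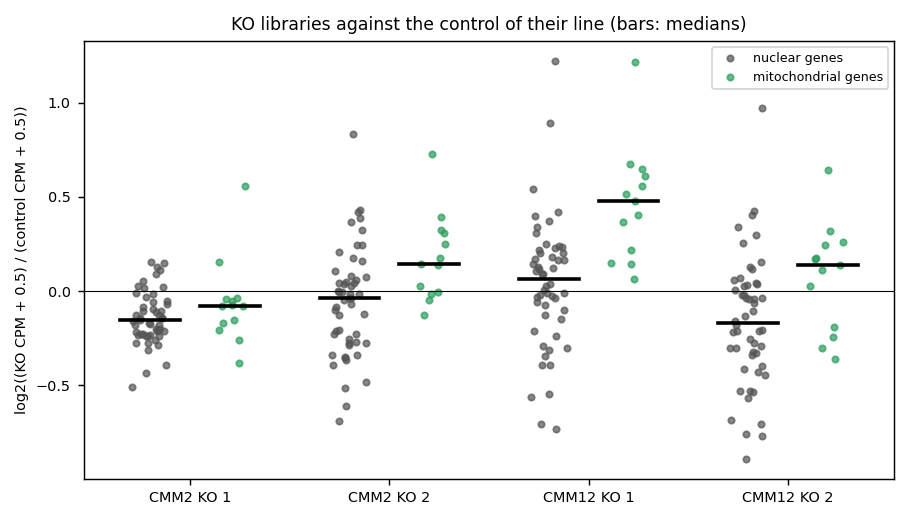
Log2 ratio of CPM + 0.5 in each KO library to CPM + 0.5 in the control of its line, for the 52 nuclear and 13 mitochondrial members tested (black bars are medians). Nuclear medians run from −0.17 to 0.06, and the mitochondrial median is highest in CMM12 KO 1, at 0.48.

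All 4 KO libraries lay below their control for 14 of 52 nuclear members (26.9%), against 10.6% of all genes, and above it for 2, NDUFS7 and ATP5IF1, against 10.5%. Without CMM2 KO 2, an alternative added after the values were seen, the other 3 KO libraries lay below their control for 18 of 52 (34.6%), against 16.8% of all genes. The 14 were NDUFA10, NDUFA13, NDUFB2, NDUFB3, NDUFS1, NDUFS5 and NDUFV2 of complex I, UQCRC1, UQCRC2 and UQCRFS1 of complex III, COX5A and COX8A of complex IV, and ATP5F1A and ATP5PB of complex V. None of complex II was among them. Of the mitochondrial genes, MT-CYB and MT-ATP8 lay above their control in all 4.

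In CMM2 alone both KO libraries lay below the control for 30 of 52 nuclear members (57.7%), against 30.9% of all genes, and above it for 7, against 30.1%. In CMM12 the counts were 20 below (38.5%), against 34.2% of all genes, and 13 above, against 35.6%. Of the 13 mitochondrial genes, 4 lay below and 2 above in CMM2, and none below and 9 above in CMM12. Members measured in the same library are not independent, and these counts share the control of each line.

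NDUFS1, which carries iron-sulfur clusters of complex I, was at 210 CPM in the CMM2 control and 182 and 172 CPM in its KO libraries, and at 182 CPM in the CMM12 control and 111 CPM in both KO libraries. The KO libraries were below the control in each line, with a log2 fold change of −0.48 across lines (SE 0.167, edgeR adjusted p = 0.987) and −0.71 in CMM12 (SE 0.223, edgeR adjusted p = 0.774). ATP5F1A was at 1917, 1623 and 1342 CPM in the CMM2 control, KO 1 and KO 2 and 1204, 724 and 952 CPM in CMM12, with a log2 fold change of −0.45 (SE 0.181, edgeR adjusted p = 0.987). UQCRFS1, the Rieske iron-sulfur protein, was at 181, 168 and 176 CPM in CMM2 and 197, 133 and 115 CPM in CMM12, with log2 fold changes of −0.07 in CMM2 (SE 0.237) and −0.67 in CMM12 (SE 0.233, edgeR adjusted p = 0.797). ATP5PB was at 357, 316 and 332 CPM in CMM2 and 249, 170 and 147 CPM in CMM12, with −0.65 in CMM12 (SE 0.236, edgeR adjusted p = 0.804). These 4 genes thus lay below the control in all KO libraries, and none passed the adjustment.

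COX7A1 was the member at 2-fold or more in both KO libraries of a line, at 2.69 and 2.22 times the control in CMM12, on few counts (log2 fold change 1.29, SE 0.777, edgeR adjusted p = 0.870). In CMM2 its KO libraries lay on both sides of the control. The KO effect on MT-CYB was a log2 fold change of 0.28 in CMM2 (SE 0.414) and 0.81 in CMM12 (SE 0.425), and CMM12 KO 1 was at 233% of the control and KO 2 at 118%. Among differences of the KO effects, CMM12 minus CMM2, NDUFS4 had 0.97 (SE 0.534), COX4I1 0.59 (SE 0.385), UQCRFS1 −0.59 (SE 0.336) and MT-CO2 0.57 (SE 0.385), each with an edgeR adjusted p of 1. The KO effects of the 65 tested members in the 2 lines, which share no library, had a Pearson's r of 0.142 across genes, which are not independent replicates, and the 52 nuclear members alone had −0.063. Over all genes it was −0.001.

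Genes around the complexes were read from lists, beside the 25.8% of all genes called between the lines and their median of 0.04. Of 36 tested assembly factors 9 were called (25%), 4 higher and 5 lower in CMM12, with a median of −0.15. Among them was LRPPRC, which stabilises mitochondrial mRNAs, at −0.71 (SE 0.146, edgeR adjusted p = 0.0127). Of 61 tested proteins of the mitochondrial ribosome 16 were called (26.2%), 4 higher and 12 lower, with a median of −0.22. The shares called in both lists were near that of all genes. MRPL21 was at 290, 264 and 197 CPM in CMM2 and 81.8, 87.2 and 97.5 CPM in CMM12 (log2 fold change −1.49, SE 0.193, edgeR adjusted p = 0.00279). Of 23 tested genes of mitochondrial DNA expression 7 were called (30.4%), 3 higher and 4 lower, with a median of −0.18. FASTKD3 was at 23.5, 20.4 and 21.9 CPM in CMM2 and 68.2, 65.7 and 56.5 CPM in CMM12 (log2 fold change 1.53, SE 0.169, edgeR adjusted p = 0.00173), and POLG, the mitochondrial DNA polymerase, had −0.94 (SE 0.204, adjusted p = 0.0158).

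Of 14 tested genes of the tricarboxylic acid cycle and its entry 6 were called (42.9%), with a median of −0.19. CS, IDH2, SUCLA2 and SUCLG2 were lower in CMM12 and PC, the pyruvate carboxylase, was higher. IDH2 was at 232, 233 and 223 CPM in CMM2 and 116, 98.8 and 84.7 CPM in CMM12 (log2 fold change −1.21, SE 0.158, edgeR adjusted p = 0.00279). Of 18 tested electron carriers and partners 2 were called (11.1%), a smaller share than over all genes, and their median was 0.10. These were COQ2 and PDSS1, enzymes of ubiquinone synthesis, lower by −0.72 and −1.10. Of 10 tested regulators of nuclear members 3 were called (30%), with a median of −0.02. MYC was higher (0.81) and PPRC1 and GABPB1 were lower (−0.93 each). PPARGC1A was at 0 in the 6 libraries. Of the 14 called genes named here from the lists, MRPL21, FASTKD3, IDH2, SUCLA2, SUCLG2 and PC were called in all 18 alternatives and the others in 9 to 17.

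No gene of these lists passed in a KO comparison. Across lines 48.0% of all genes were below 0, as were 21 of 23 genes of mitochondrial DNA expression (median −0.20), 42 of 61 of the mitochondrial ribosome, 24 of 36 assembly factors, 11 of 14 of the tricarboxylic acid cycle, 11 of 18 electron carriers and 6 of 10 regulators. The lines differed in these counts, and the difference was not tested for the lists. In CMM2, where 46.7% of all genes were below 0, 19 of 23 genes of mitochondrial DNA expression, 42 of 61 of the mitochondrial ribosome and 30 of 36 assembly factors were. In CMM12, where 47.5% of all genes were below 0, the counts were 13 of 23, 29 of 61 (median 0.07) and 18 of 36. Of the tricarboxylic acid cycle 10 of 14 were below 0 in CMM2 and 11 of 14 in CMM12. SSBP1, which binds single-stranded mitochondrial DNA, was at 86.7, 63.6 and 54.5 CPM in the CMM2 control, KO 1 and KO 2 and at 58.6, 40.0 and 45.4 CPM in CMM12. Each KO library lay below its control (log2 fold change −0.51, SE 0.165, edgeR adjusted p = 0.987).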

How the data were processed

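Expected counts and TPM per gene were deposited by the authors for each of the 6 libraries, per the file headers. The submitters' processing notes name RSEM 1.3.3, STAR 2.7.3a and, as genome build, CanFam3.1. The strand setting was not given in the sources used here. Expected counts were rounded to whole numbers. They were tested with edgeR 4.0.16 (quasi-likelihood, TMM factors, filterByExpr on the 4 groups, Benjamini-Hochberg adjustment over 12270 genes at 0.05) in R 4.3.3. The KO effect across lines and the line contrast came from an additive model of line and genotype. Only that model was also run on simulated counts, with the same assumed spread for every gene. The KO effect in each line, and their difference, came from a model of 4 group means, where the lone control is assumed to vary like the KO pairs. CPM uses TMM-scaled library sizes. Alternatives were DESeq2 1.42.0, limma 3.58.1 on log2(TPM + 1) or log2(TPM + 0.1), other filters and factors, and leaving out each library.

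The rule for named genes took every mitochondrial gene, up to 3 nuclear members per complex and comparison with the smallest p, those at 2-fold or more, tissue isoforms, PDPN, and up to 3 genes per list. Other genes, such as those among the 14 below their control and the remaining called members, were named after their values were seen. Some genes are counted in the totals and not reported here by name or as labelled points. The members and lists were chosen with earlier results of these data known. Of the member symbols, 55 were found in the RefSeq table (UU_Cfam_GSD_1.0), which was used only for which genes neighbour each other.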

Additional observations from a re-analysis of the deposited data

How the results depend on the processing

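Of 60 genes reported between the lines, 54 kept their sign in all alternatives, as did all those reported in the KO comparisons, where no member was called in any alternative. The 6 others lay near 0. ATP5F1C was 0.079 with limma on log2(TPM + 1), on log2(TPM + 0.1) and without a filter, and MT-CO2 was 0.081, 0.082 and 0.081 in these fits and 0.151 in the KO libraries alone. Leaving out 1 library gave −0.099 to 0.053 for ATP5F1C, −0.206 to 0.154 for MT-CO2, −0.009 to 0.160 for ATP5F1D, −0.023 to 0.340 for COX4I1, −0.263 to 0.053 for MT-ATP8 and −0.034 to 0.254 for MT-ND6. Counts over all genes in the KO comparisons moved. Across lines (0) DESeq2 called 9, the fit without a filter 15, limma on log2(TPM + 1) 3 and on log2(TPM + 0.1) 2, and leaving out 1 library gave 0 to 1. In CMM2 (0) DESeq2 called 6, the fit without a filter 1, and leaving out 1 library gave 0 to 1. In CMM12 (1) DESeq2 called 40, the fit without a filter 26, a filter of 1 CPM in 2 libraries 0, the bias-adjusted fit 4, limma on log2(TPM + 1) 0, on log2(TPM + 0.1) 0 and without a filter 75, and leaving out 1 library gave 0 to 14. For the difference (0) DESeq2 called 22, the fit without a filter 2, and leaving out 1 library gave 0 to 1. The cause was not tested.

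Between the lines, leaving out 1 library gave 12 to 24 nuclear, 1 to 4 mitochondrial and 1499 to 3096 calls over all genes (26, 3 and 3170 with all libraries), and limma on log2(TPM + 1) without a filter gave 1 mitochondrial call. The other fits gave 21 to 31 nuclear calls, 8 to 11 of them higher, apart from the KO libraries alone. With limma on log2(TPM + 1) the median of all genes was 0.15 in place of 0.04, that of the nuclear members −0.15 in place of −0.28, and 11 nuclear members were called higher and 16 lower (68.2% of all calls higher, in place of 56.5%). Of the 60 genes, 22 stayed on 1 side of the threshold in all alternatives.

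With the KO number as a replicate block, 1 gene was called across lines, and between the lines 25 nuclear members and 2959 genes. The 4 KO libraries alone with the replicate block gave 13 nuclear, 1 mitochondrial and 1700 calls in all. KO 2 minus KO 1 correlated between the lines at 0.0553 across genes over 2 pairs. That is too few to tell whether the KO numbers pair the libraries, and the labels do not say. The mean mitochondrial share in CMM12 was 87.9% of that in CMM2 by counts and 85.6% by TPM. The share by TPM leans on short genes: MT-ATP8 made up 15% to 19.8% of the mitochondrial TPM on 105 to 183 counts.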
